A study of Mus musculus with 7 samples.

Results

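The comparison described here set 3 mouse esophageal epithelial cell lines that carry the missense allele p53R172H (called mutant 1, 2 and 3) against 2 lines with the genotype p53 -/- (called null 1 and null 3), 5 of the 7 libraries of the series. It bears on what a missense p53 does beyond the loss of p53. Every mutant and null line has 4NQO as its treatment label, which stands for 4-nitroquinoline 1-oxide, a carcinogen of the esophagus. The other 2 libraries came from wild-type (WT) lines without that label, so they show where a gene stood in cells with intact p53 and no such label. All 7 lines have a mixed strain background and were grown on plastic in the keratinocyte medium KSFM. The sources used here do not give ages, sexes, the dose of 4NQO or the number of animals behind the lines. A line is a single derived culture, so differences between lines of different origin are part of each comparison. Every gene was considered, and a gene was taken as a candidate where its 3 mutant libraries lay entirely above or entirely below its 2 null libraries.

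p53 is a transcription factor that binds DNA as a tetramer and activates genes of cell cycle arrest and cell death. The p53R172H protein has a misfolded DNA-binding domain and is known to have lost most of that activity. Missense p53 proteins are also known to accumulate in tumor cells and to bind other transcription factors, among them p63 and p73, and effects of that kind are called gain of function. A null line lacks both the normal and the acquired activities, so it is the usual reference for such effects.

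Of 23955 gene names, 13768 had enough counts to be tested, and 4285 of these did not overlap between mutant and null lines. Levels are given as CPM, counts scaled to library size with TMM factors. TMM corrects for composition and nothing corrects for gene length, so levels are compared between libraries and not between genes. Libraries held 25469853 to 47000225 counts in the mutant and null lines and 12751118 and 31283848 in WT, and replicate libraries differed far beyond sampling noise. Basal epithelial identity was shared: Krt5, a basal keratin, was at 2035 to 4214 CPM in all 5 mutant and null libraries, and p63, encoded by Trp63, was at 168 to 441 CPM. Of 16 immune markers 14 were under 1 CPM in every library, as were at least 9 of 12 endothelial markers. Of 15 fibroblast markers 9 were tested. The summed level of these 9 was 868, 25.3 and 398 CPM for mutant 1, 2 and 3 and 14.1 and 486 CPM for null 1 and null 3, so it split the lines across genotype. The lines also differ in sex-linked RNA: the mutant lines had the Y-linked gene Ddx3y at 67.4 to 77.0 CPM and null 3 at 96.4 CPM, null 1 had it at 0.0304 CPM, and Xist did not exceed 0.964 CPM in any of the 5. Null 1 and null 3 therefore differ from each other in several ways, and the values without each of them are given where a result rests on them. Whole profiles did not group by genotype alone. The Pearson correlation of log2 CPM over the genes tested was 0.958 for mutant 1 with null 3. For mutant 1 it was 0.919 with mutant 2 and 0.939 with mutant 3, and mutant 2 and mutant 3 were at 0.953. Null 1 was at 0.94 with WT 1 and at 0.895 with null 3.

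Trp53, which encodes p53, checks the p53 -/- label. Mutant 1, 2 and 3 had it at 172, 249.6 and 254 CPM, null 1 and null 3 at 8.73 and 4.71 CPM, and the WT lines at 212 and 193 CPM. The mutant lines covered the WT range and the null lines were far below it. The level of Trp53 therefore cannot show which allele the mutant lines carry. Its log2 fold change, mutant minus null, was 5.06 (SE 0.373), with an adjusted p of 0.0555 by edgeR's quasi-likelihood test, the smallest of any gene. Over the alternatives its adjusted p ran from 3.56e-55 to 0.432.

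With a threshold of 0.05 on the adjusted p, edgeR called 0 of 13768 genes, while 1924 had an unadjusted p under 0.05, which is 14.0% of those tested (874 higher in mutant lines, 6.35%, and 1050 lower, 7.63%). DESeq2 called 604 genes, 213 higher (1.55%) and 391 lower (2.84%) in the mutant lines, and 592 of them did not overlap. limma-voom called 0. The genes below are therefore described by their levels, as candidates and not as called changes, and their p-values are adjusted over all genes. Non-overlap was common: 2202 genes were higher in every mutant library, 16.0% of genes tested, and 2083 were lower, 15.1%. The median gap was small, 1.12-fold for higher and 1.16-fold for lower genes, where the gap is the lowest library of the higher group over the highest of the lower group after adding 0.5 CPM to each. A gap of at least 2-fold was left between the groups for 46 genes higher (0.334%) and 153 lower (1.11%) in the mutant lines. At that limit, Kif11 lay just inside at 2.03-fold and Rrm2 just outside at 2.00-fold among higher genes. Among lower genes Ppm1j lay inside at 2.00-fold and Tspan7 outside at 1.99-fold.

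The WT libraries show which genotype stood apart. Of the 46 higher genes with a 2-fold gap, the mutant lines were above all 4 null and WT libraries for 36, and the null lines were below all 5 others for 18, with 8 in both sets. Of the 153 lower genes, the mutant lines were below all 4 others for 97 and the null lines above all 5 others for 72, with 20 in both sets and 4 in neither. Over all genes tested, the mutant lines were above all 4 others for 8.35% and below them for 8.88%, and the null lines were above all 5 others for 5.77% and below them for 6.60%. The 2 kinds of share rest on groups of different size, so each is read against its own value over all genes.

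Among genes at 5 CPM or more in every mutant line, those with the widest gap above the null lines were mostly absent or low in WT cells too. After Trp53 came Mgll, the lipase that breaks down monoacylglycerols, at 11.9, 51.4 and 9.13 CPM in mutant 1, 2 and 3 and at 0.304 and 0.266 CPM in null 1 and null 3, with 0.068 and 0.244 CPM in WT. Aff3, a nuclear protein of the AF4 family, was at 18.8, 14.2 and 11 CPM against 0.213 and 0.835 CPM, and Nrg2, a ligand of ErbB receptors, at 25.1, 12.6 and 15.3 CPM against 0.426 and 1.18 CPM. For all 3 genes the lowest mutant library was at least 7.83-fold above the highest null library. The log2 fold changes were 6.38 (SE 1.10) for Mgll, 4.81 (SE 0.765) for Aff3 and 4.46 (SE 0.654) for Nrg2, each with adjusted p = 0.258 by edgeR.

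Secreted and cell surface genes followed. Slit3, a secreted guidance ligand of Robo receptors, was at 34.0, 88.6 and 45.6 CPM in the mutant lines, 0.974 and 5.66 CPM in the null lines and under 0.1 CPM in both WT lines. Igfbp4, which binds insulin-like growth factors, was at 129, 69.6 and 492 CPM against 3.50 and 16.5 CPM. Pla2g7, a secreted phospholipase that inactivates platelet-activating factor, was at 64.5, 73.7 and 50.1 CPM against 1.61 and 10.8 CPM. Gas1, a membrane co-receptor for hedgehog ligands, was at 112, 168 and 115 CPM against 4.63 and 42.1 CPM. In these 4 genes null 3 was above null 1 and still below every mutant library. Gpc3, a cell surface heparan sulfate proteoglycan, was at 4.70, 35.9 and 20.1 CPM against 0.0609 and 0.228 CPM. C1qtnf3, a secreted protein of the C1q family, had 2001 counts over the mutant lines and 1 over the null lines, a ratio of 902 with a 95% interval of 162 to 35628 that covers counting error only.

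**Figure D1:**
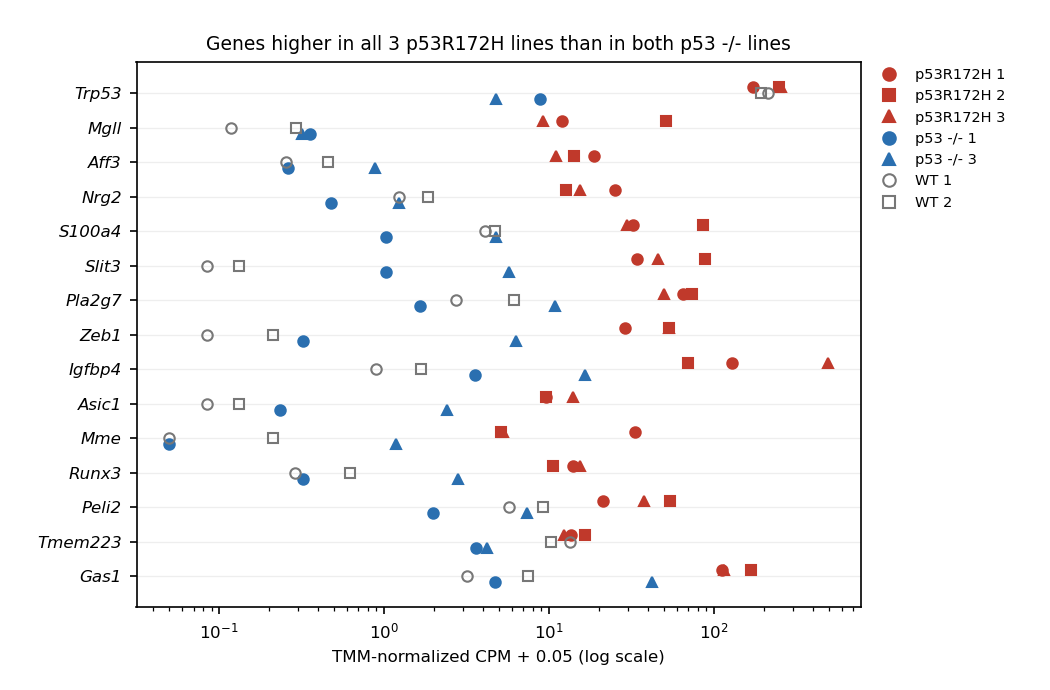
TMM-normalized CPM plus 0.05 on a log axis for the 15 genes with the widest gap among those higher in mutant lines and at 5 CPM or more in every mutant library, 1 point for each library (red p53R172H, blue p53 -/-, open grey WT). Every red point lies to the right of both blue points. Trp53 and Tmem223 are at a mutant-like level in WT, and most of the others are low in WT.

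The remaining genes of this set hold transcription factors and membrane proteins. Zeb1, a repressor of epithelial genes that drives epithelial-mesenchymal transition, was at 28.9, 53.6 and 53.7 CPM in the mutant lines, 0.274 and 6.23 CPM in the null lines and at most 0.162 CPM in WT. Its log2 fold change was 3.81 (SE 1.18, edgeR adjusted p = 0.290). Runx3, a developmental transcription factor, was at 14.0, 10.6 and 15.4 CPM against 0.274 and 2.77 CPM. S100a4, a calcium-binding protein linked to cell motility, was at 32.1, 85.8 and 29.8 CPM against 0.974 and 4.75 CPM. Asic1, an acid-sensing ion channel, was at 9.56, 9.59 and 13.9 CPM against 0.183 and 2.35 CPM, and Mme, the peptidase neprilysin, at 33.3, 5.10 and 5.21 CPM against 0 and 1.14 CPM. Peli2, a ubiquitin ligase of the Pellino family, was at 21.3, 54.0 and 37.5 CPM against 1.92 and 7.33 CPM. Of the 30 genes plotted for both directions, DESeq2 called 29, all but Mme, where it called 604 of all 13768 genes. The 30 were chosen by their gap in these same libraries, so the DESeq2 calls are not separate support. The edgeR adjusted p of the 29 besides Trp53 lay between 0.258 and 0.353.

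Some differences were tight between the lines of each genotype. Tmem223, a mitochondrial membrane protein, was at 13.6, 16.5 and 12.2 CPM in the mutant lines and 3.56 and 4.14 CPM in the null lines, with 13.3 and 10.3 CPM in WT, so here the null lines stood apart. Dnajc9, a histone chaperone, was at 46.4, 54.9 and 51.0 CPM against 19.5 and 23.3 CPM. Luc7l, a splicing factor, was at 145, 158 and 152 CPM against 83.1 and 91.2 CPM, and Larp7, which binds 7SK RNA, at 44.4, 48.0 and 49.0 CPM against 23.5 and 26.1 CPM. For Dnajc9, Luc7l and Larp7 the mutant lines were above WT as well.

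Genes lower in mutant lines left wider gaps in larger number, and epithelial products lead them. Krt42, a type I keratin, was at 2.48, 0.570 and 2.18 CPM in mutant 1, 2 and 3 and at 34.6 and 131 CPM in null 1 and null 3, with 9.39 and 14.2 CPM in WT. Its gap of 11.8-fold was the widest of any lower gene, and its log2 fold change was -5.56 (SE 0.801, edgeR adjusted p = 0.258). Sprr2d, a precursor of the cornified envelope, was at 0.325, 0.0237 and 0.115 CPM against 124 and 9.0 CPM. Its relative Sprr2f had 3 counts over the mutant lines and 506 over the null lines, a ratio of 374 with a 95% counting interval of 127 to 1821. It had the second smallest adjusted p, 0.0764 by edgeR, and from 6.57e-12 to 0.555 over the alternatives. Genes of the Sprr2 family are near copies, so reads may be shared among them. Krt23, another type I keratin, was at 0.569, 0.166 and 0.138 CPM against 5.78 and 5.09 CPM.

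Metabolic, transport and immune genes were also among the widest gaps. Arg1, the arginase that splits arginine to ornithine and urea, was at 0.834, 0.0949 and 0.0459 CPM against 40.1 and 14.8 CPM. Slc39a4, a zinc importer, was at 5.82, 3.13 and 2.94 CPM against 53.3 and 31.2 CPM, and Entpd2, an ectonucleotidase, at 1.87, 1.14 and 1.54 CPM against 19.2 and 11.4 CPM. S100a8, a subunit of calprotectin, was at 0.976, 0.0712 and 0.367 CPM against 46.6 and 9.23 CPM. Il18r1, the receptor chain for interleukin 18, was at 0.732, 0.831 and 0.0459 CPM against 9.98 and 12.3 CPM, with 0.646 and 0.487 CPM in WT. The WT lines sat with the mutant lines for Il18r1 and between the groups for Entpd2 and S100a8. Pglyrp1, which binds bacterial peptidoglycan, was at 1.99, 0.119 and 0.0918 CPM against 38.4 and 11.2 CPM.

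**Figure D2:**
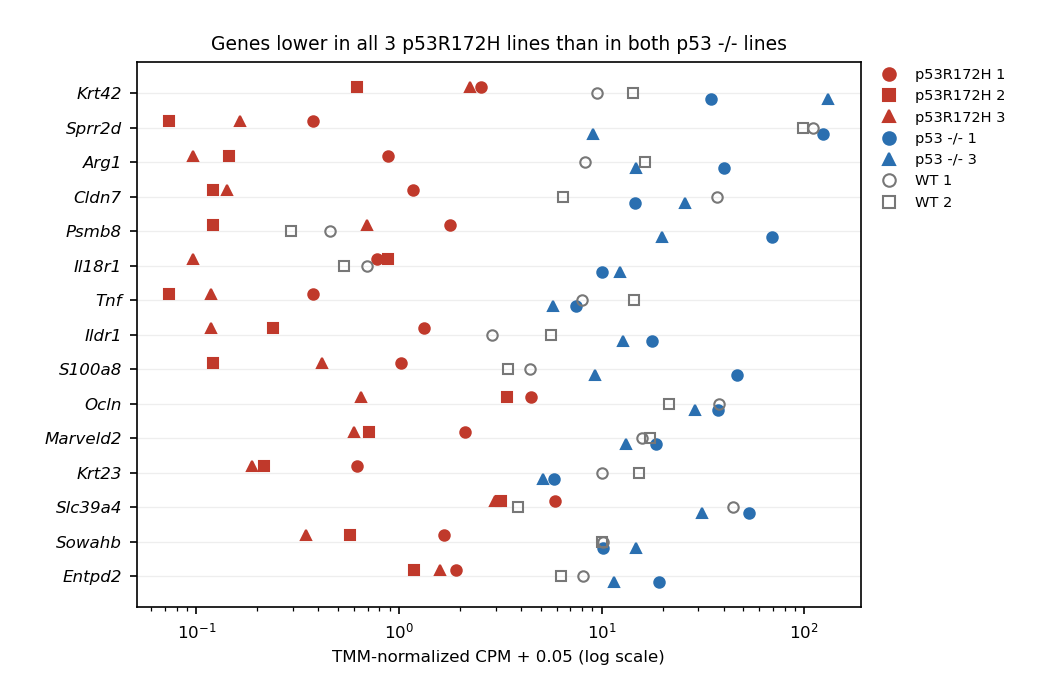
TMM-normalized CPM plus 0.05 on a log axis for the 15 genes with the widest gap among those lower in mutant lines and at 5 CPM or more in both null libraries, 1 point for each library (red p53R172H, blue p53 -/-, open grey WT). Every red point lies to the left of both blue points. Open grey points lie near the blue ones for Ocln and Marveld2 and near the red ones for Psmb8 and Il18r1.

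Several genes varied less between lines of a genotype. Nupr1, a stress-induced nuclear protein, was at 87.2, 42.1 and 53.2 CPM in the mutant lines and 381 and 323 CPM in the null lines, with 111 and 78.2 CPM in WT. Bcl2l1, which encodes the survival protein BCL-XL, was at 91.4, 79.9 and 96.7 CPM against 186 and 175 CPM. Nbeal2, a protein of vesicle traffic, was at 11.7, 10.3 and 11.3 CPM against 27.3 and 27.0 CPM. Stard10, a lipid transfer protein, was at 36.4, 35.0 and 31.9 CPM against 103 and 77.1 CPM, and the kinase Mapkapk3 was at 24.2, 20.7 and 22.1 CPM against 50.1 and 46.1 CPM. For Bcl2l1, Nbeal2, Stard10 and Mapkapk3 both WT lines were above every mutant line. Pbp2 had 0 counts in the mutant lines and 81 in the null lines, at least 59.9-fold higher in null when the mutant group is set at a floor of 3 counts over the group. The 81 counts are pooled and do not show the spread between the null lines.

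Gene lists by function were counted next, and each count is read against the 16.0% of all genes that were higher and the 15.1% that were lower without overlap. The groups that stood furthest from these shares were DNA replication (82.5% higher), nucleotide synthesis (64.0% higher) and mitosis (63.2% higher) on one side. On the other side stood interferon-stimulated genes (73.9% lower), junctions and epithelial transcription factors (69.4% lower) and suprabasal differentiation (55.8% lower). Genes of a list share regulators and libraries, so a list's count is a description and not a number of independent results. In bulk libraries fewer cells of a type and less RNA per cell cannot be told apart.

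**Figure D3:**
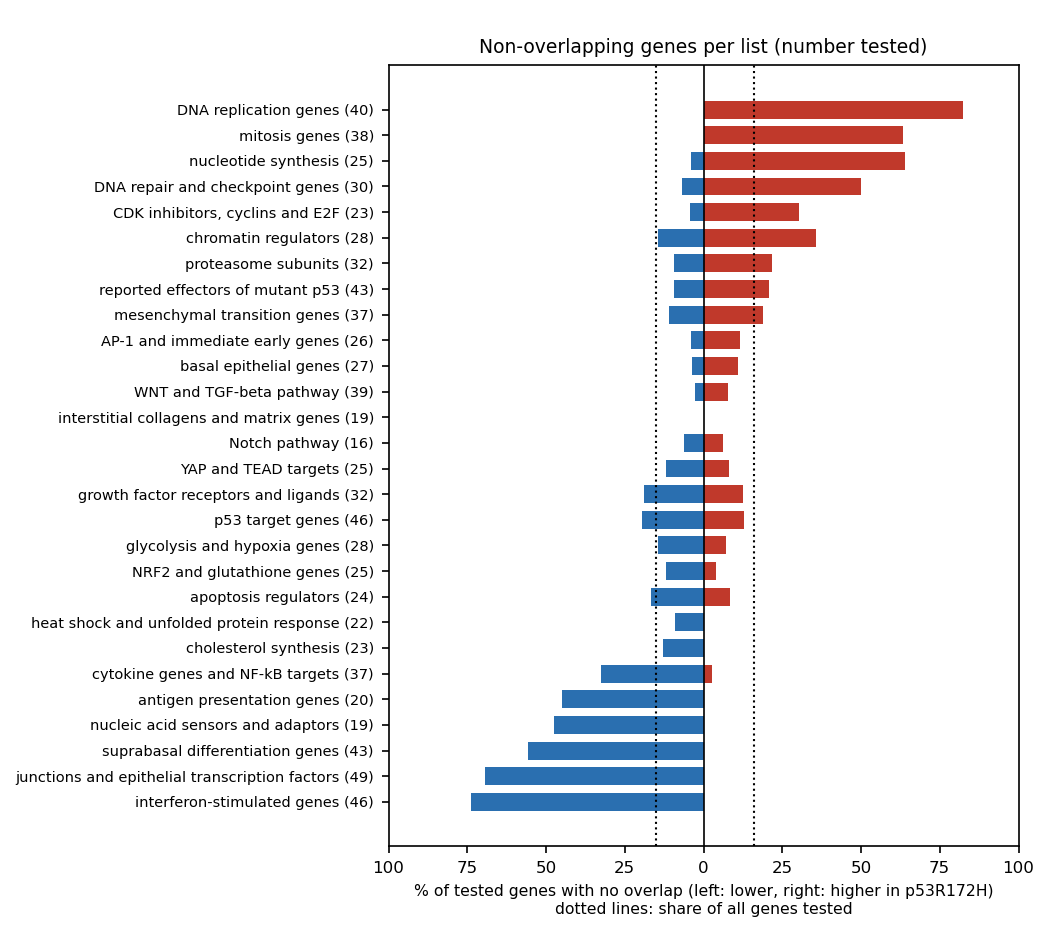
Percent of tested genes in each list of at least 15 tested genes whose mutant and null libraries do not overlap, to the right for genes higher and to the left for genes lower in p53R172H lines; the number tested is in parentheses. Dotted lines mark the share of all genes tested, 16.0% higher and 15.1% lower. DNA replication reaches 82.5% to the right and interferon-stimulated genes 73.9% to the left.

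Junction genes and their transcription factors were lower in mutant lines, and WT and null lines stood together above them. Of 49 tested, 34 were lower without overlap and 0 higher, 9 with a 2-fold gap, and the median log2 fold change was -1.32 against 0.02 for all genes tested. The mutant lines were below all 4 null and WT libraries for 32 of the 49, where 8.88% of all genes were. Tight junction strands are built from claudins and from proteins of the occludin family, and these led. Cldn7, a claudin, was at 1.12, 0.0712 and 0.0918 CPM in mutant 1, 2 and 3 and at 14.6 and 25.8 CPM in null 1 and null 3. Ocln, occludin, was at 4.45, 3.35 and 0.597 CPM against 37.3 and 28.9 CPM, and Marveld2, tricellulin, at 2.07, 0.664 and 0.551 CPM against 18.5 and 13.2 CPM. WT lines were at 38.0 and 21.5 CPM for Ocln and 15.7 and 17.2 CPM for Marveld2, close to the null lines. The edgeR log2 fold changes were -5.53 (SE 1.32, adjusted p = 0.272), -3.56 (SE 0.747, adjusted p = 0.258) and -3.84 (SE 0.620, adjusted p = 0.258). Ildr1, a protein of tricellular contacts outside the list, was at 1.28, 0.190 and 0.0688 CPM against 17.7 and 12.7 CPM.

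Other members were chosen for mention after their values were seen. Cldn4, another claudin, was at 226, 22.7 and 11 CPM in the mutant lines and 1455 and 1026 CPM in the null lines. Epcam, an epithelial adhesion molecule, was at 175, 70.1 and 55.0 CPM against 353 and 388 CPM. Cdh1, E-cadherin, was at 476, 289 and 445 CPM against 742 and 762 CPM, a smaller separation with a gap of 1.56-fold. Among the transcription factors that maintain epithelial genes, Ovol1 was at 4.09, 0.427 and 1.47 CPM against 17.3 and 10.7 CPM, and Grhl2 at 70.3, 59.0 and 53.9 CPM against 115 and 83.0 CPM. In each of these 5 genes the mutant lines were also below both WT lines.

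Promoters of junction genes are shown because ZEB proteins bind the letters CAGGTG (an E-box) and Zeb1 was among the genes higher in mutant lines. The windows were RefSeq promoters of the mouse build GRCm38.p6, 250 bases before to 50 after a gene's start, searched on both strands. Of the 34 lower junction genes 19 matched the table by symbol, and 18 of their 25 promoters (72.0%) held CAGGTG, against 20.2% of all 32851 promoters. The other tested genes of the list held it in 3 of 6 promoters. The stretches printed are from genes with a match. Marveld2, named above, had none before the start, and Cdh1, Grhl2 and Ovol1 had no promoter matched by symbol. Stretches of 100 bases before the start, 5′ to 3′ on the gene's strand with the E-box in capitals on either strand, read as follows.
Cldn7 (chr11:69965300-69965399, plus strand): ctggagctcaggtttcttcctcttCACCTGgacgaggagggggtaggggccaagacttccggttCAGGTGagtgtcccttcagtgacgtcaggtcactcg
Ocln (chr13:100552531-100552630, minus strand): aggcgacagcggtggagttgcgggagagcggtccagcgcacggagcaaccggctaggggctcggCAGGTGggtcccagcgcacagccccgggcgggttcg
Cldn4 (chr5:134946935-134947034, minus strand): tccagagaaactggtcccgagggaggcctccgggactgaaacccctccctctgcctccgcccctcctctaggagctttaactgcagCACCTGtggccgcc
A match is a run of letters in this window and not a measured site. Whether Zeb1 acts on these genes was not tested.

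Suprabasal differentiation genes, which esophageal cells switch on as they leave the basal layer, followed the same order of lines. Of 54 listed genes 43 were tested, and 24 were lower without overlap and 0 higher, with a median log2 fold change of -1.82. The mutant lines were below all 4 others for 23. Ppl, periplakin, which links the cornified envelope to keratin filaments, was at 53.3, 41.0 and 54.7 CPM in the mutant lines, 253 and 134 CPM in the null lines and 398 and 297 CPM in WT. Its log2 fold change was -1.96 (SE 0.299, edgeR adjusted p = 0.258). Cryab, a small heat shock protein of differentiated layers, was at 16.8, 5.13 and 2.20 CPM against 55.0 and 49.7 CPM. Krt13, the keratin of the esophageal suprabasal layer, was at 8.71, 1.45 and 2.96 CPM against 14.9 and 47.5 CPM, and both WT lines were higher still at 85.9 and 173 CPM (a gene chosen after its values were seen). Mutant 1 was the least low of the mutant lines: without it the median was -3.54. Of 17 promoters of the lower suprabasal genes 10 held the AP-1 letters TGANTCA (58.8%), against 7.81% of all promoters and 7 of 20 in the other tested genes of the list.

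Basal genes did not share this pattern. Of 27 tested 3 were higher and 1 lower without overlap, shares under the background. Itga6, the basal integrin chain, was at 1083, 1870 and 1269 CPM in the mutant lines and at 417 and 713 CPM in the null lines. Sox2, a factor of basal progenitors, was at 36.1, 77.8 and 148 CPM against 25.3 and 26.8 CPM.

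Interferon-stimulated genes were lower in mutant than in null lines, and here the null lines stood apart. Interferons are cytokines that signal through cell surface receptors to a promoter element called the ISRE, and the genes they switch on sense and block viruses. Of 50 listed genes 46 were tested, 34 were lower in every mutant line and 0 higher, 17 with a 2-fold gap, and the median log2 fold change was -1.90. The null lines were above all 5 mutant and WT libraries for 26 of the 46, where 5.77% of all genes were, and the mutant lines were below all 4 others for 4. Relative to WT, the list's mean on the log2 scale stood at -0.14, -0.49 and 0.52 for mutant 1, 2 and 3. It stood at 2.14 and 1.33 for null 1 and null 3, and at 0.55 and -0.55 for WT 1 and WT 2. In summed CPM, which the most abundant genes dominate, null 3 at 856 was close to WT 1 at 842, and null 1 was at 1464. The median was -1.46 without null 1 and -2.26 without null 3, so the median was negative against either null line alone.

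Sensors of viral RNA and DNA led the list. Ifih1, the RNA sensor MDA5, was at 1.75, 0.831 and 2.18 CPM in mutant 1, 2 and 3 and 18.0 and 12.8 CPM in null 1 and null 3, with 8.57 and 2.68 CPM in WT. Its log2 fold change was -3.27 (SE 0.636, edgeR adjusted p = 0.258). Zbp1, a sensor of Z-form nucleic acid, was at 0.915, 0 and 0.321 CPM against 5.08 and 5.35 CPM. Oasl2, a member of the oligoadenylate synthetase family, was at 0.732, 0.0712 and 2.18 CPM against 32.0 and 9.19 CPM. Tlr3, the endosomal receptor of double-stranded RNA, was at 6.08, 1.95 and 5.0 CPM against 27.6 and 16.1 CPM, and WT at 19.9 and 15.8 CPM sat with the null lines. The 19 sensors and adaptors had 9 lower without overlap, 0 higher and a median of -0.65, and without null 3 10 lower, 4 higher and a median of -0.37.

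Components of the interferon pathway itself were separated in part. Irf7, an amplifying factor that interferon itself induces, was at 0.834, 0.831 and 3.95 CPM against 14.2 and 10.4 CPM, and Stat2 at 19.5, 22 and 33.8 CPM against 54.3 and 38.6 CPM. Irf9 and Irf1 overlapped between the groups. Ifnar1, a receptor chain for type I interferon, was at 64.2, 68.2 and 77.5 CPM against 74.9 and 68.5 CPM. In 3 effector genes mutant 3 was the highest mutant line. Ifit1, which binds foreign RNA ends, was at 1.16, 0.190 and 4.34 CPM against 22.2 and 15.2 CPM. Isg15, a ubiquitin-like modifier, was at 3.95, 2.73 and 20.3 CPM against 47.8 and 28.4 CPM, and Bst2, tetherin, at 11.9, 10.3 and 25.6 CPM against 99.8 and 37.3 CPM. The genes of this paragraph were chosen after their values were seen.

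Promoters of interferon genes are shown because many, not all, of the lower members hold the ISRE letters. The stretches printed are from genes with a match, and Ifih1, Oasl2 and Irf7, named above, had none before the start. A pair of GAAA with any 2 bases between them, on either strand, was in 17 of 27 promoters (63.0%) of the 25 lower genes that matched the table, against 3.44% of all promoters. It was in 4 of 15 promoters (26.7%) of the other tested genes of the list. Stretches before the start, with the matches in capitals, read as follows, in the same build and orientation.
Ifit1 (chr19:34640744-34640843, plus strand): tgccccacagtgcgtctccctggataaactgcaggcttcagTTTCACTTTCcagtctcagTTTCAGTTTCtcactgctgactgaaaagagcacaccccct
Isg15 (chr4:156200845-156200944, minus strand): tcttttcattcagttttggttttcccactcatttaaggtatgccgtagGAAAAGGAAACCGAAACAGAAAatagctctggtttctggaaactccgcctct
Bst2 (chr8:71537557-71537656, minus strand): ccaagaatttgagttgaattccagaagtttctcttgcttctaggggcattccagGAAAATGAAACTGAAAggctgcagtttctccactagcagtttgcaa
Ifit1 holds a pair of separate matches in this stretch, and in Isg15 and Bst2 the matches run into each other.

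Antigen presentation genes, many of which interferon also induces, were lower in mutant lines too, with null 1 highest. Of 20 tested 9 were lower without overlap and 0 higher, with a median log2 fold change of -1.43. Class I molecules present peptides that the immunoproteasome cuts. Psmb8, a catalytic subunit of the immunoproteasome, was at 1.73, 0.0712 and 0.642 CPM in the mutant lines, 69.5 and 19.7 CPM in the null lines and 0.408 and 0.244 CPM in WT. H2-K1, the heavy chain of a class I molecule, was at 204, 114 and 142 CPM against 1289 and 476 CPM, and H2-Q4, another, at 9.01, 1.68 and 14.4 CPM against 94.7 and 33.9 CPM. The light chain B2m was at 253, 160.4 and 391 CPM against 2078 and 662 CPM (a gene chosen after its values were seen). Null 1 had the higher level in all 4 genes, and the list's median was -0.61 without null 1. Class I genes are near copies of each other, so reads may be shared among them.

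**Figure D4:**
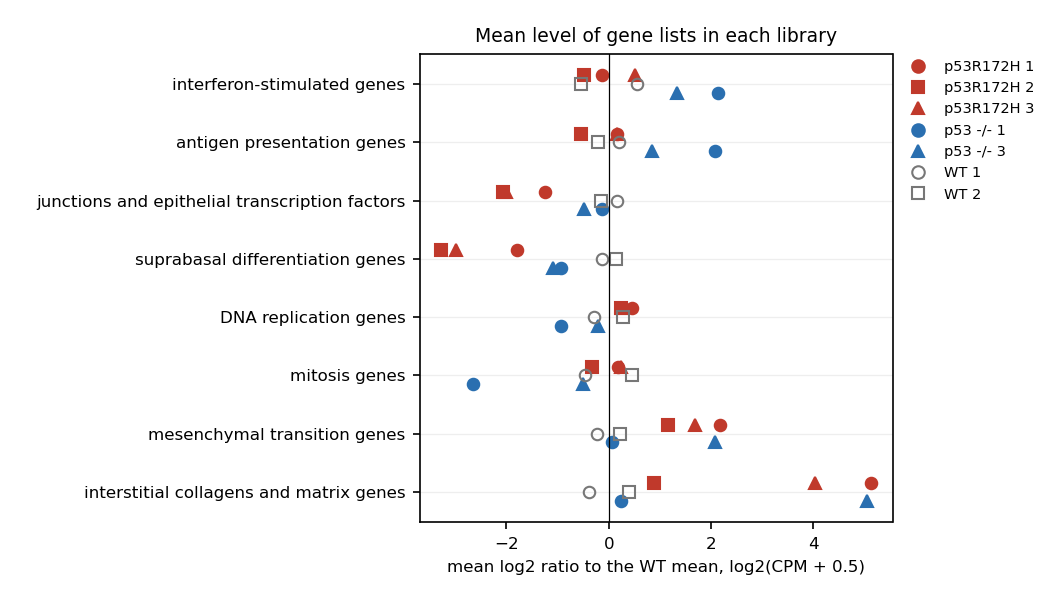
Mean log2 ratio to the WT mean, on log2(CPM + 0.5), of 8 gene lists in each library (red p53R172H, blue p53 -/-, open grey WT). Junction and suprabasal genes put the red points lowest, and interferon genes put the blue points highest at 2.14 and 1.33. For mitosis genes null 1 is far to the left at -2.66. Matrix genes put mutant 1, mutant 3 and null 3 together at 4.03 to 5.13.

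Cytokine genes were also lower in part. Of 37 tested 12 were lower without overlap, 1 was higher and the median log2 fold change was -0.55. Tnf was at 0.325, 0.0237 and 0.0688 CPM in the mutant lines, 7.39 and 5.69 CPM in the null lines and 7.99 and 14.4 CPM in WT. Csf3, the growth factor of granulocytes, was at 4.13, 5.91 and 2.11 CPM against 31.6 and 19.8 CPM, and Il1a, an alarm cytokine of keratinocytes, at 48.0, 1.31 and 16.2 CPM against 198 and 146 CPM. Mutant 1 overlapped the null lines in many members: without it 24 of 35 tested were lower and the median was -2.31. The exception was Nfkb1, a subunit of NF-kB, at 179, 143 and 165 CPM against 86.5 and 114 CPM.

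DNA replication genes were higher in mutant than in null lines. Of 40 tested 33 were higher without overlap and 0 lower, the median log2 fold change was 0.87, and 1 gene had a 2-fold gap. The mutant lines were above all 4 others for 19 of the 40, where 8.35% of all genes were, and the null lines below all 5 others for 13. Cdc6, which loads the replicative helicase onto origins, was at 18.7, 19.2 and 17.4 CPM in mutant 1, 2 and 3, at 3.83 and 8.12 CPM in null 1 and null 3 and at 5.85 and 9.34 CPM in WT. Ccne2, a cyclin of the entry into S phase, was at 29.9, 30.6 and 23.9 CPM against 7.73 and 12.0 CPM. Clspn, claspin, an adaptor of the replication checkpoint, was at 45.8, 33.3 and 36.0 CPM against 5.20 and 17.0 CPM. The edgeR log2 fold change of Cdc6 was 1.63 (SE 0.416, adjusted p = 0.275). Subunits of the helicase itself included Mcm3 at 137, 138 and 136 CPM against 32.4 and 70.1 CPM and Mcm5 at 81.0, 59.2 and 81.0 CPM against 15.8 and 43.8 CPM, both chosen after their values were seen. The list's median was 0.58 without null 1 and 1.26 without null 3. Its mean log2 level relative to WT was 0.45, 0.25 and 0.27 for mutant 1, 2 and 3. The mean was -0.94 and -0.21 for null 1 and null 3, and -0.28 and 0.28 for WT 1 and WT 2. As a list, mutant 2 and mutant 3 were thus at the level of WT 2.

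Genes of nucleotide supply and DNA repair had the same direction. Of 25 nucleotide synthesis genes 16 were higher and 1 lower without overlap, with the null lines below all 5 others for 11 and the mutant lines above all 4 others for 4. The list's mean log2 level relative to WT was -0.03, -0.00 and -0.04 for mutant 1, 2 and 3 and -0.64 and -0.36 for null 1 and null 3. Rrm2, the regulated subunit of ribonucleotide reductase, was at 82.0, 86.2 and 61.9 CPM against 12.2 and 30.7 CPM, and Umps, which completes uridine monophosphate, at 76.6, 78.8 and 89.6 CPM against 41.2 and 52.3 CPM. Rrm2 was highest in WT 2 at 159 CPM. Of 30 repair and checkpoint genes 15 were higher and 2 lower. Brca1 was at 38.5, 38.5 and 33.7 CPM against 9.13 and 17.3 CPM, and the nuclease Exo1 at 28.1, 27.1 and 24.6 CPM against 3.44 and 13.1 CPM.

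Mitosis genes were higher in mutant than in null lines, by more against null 1 than against null 3. Of 38 tested 24 were higher without overlap and 0 lower, with a median of 1.30, and the null lines were below all 5 others for 14 while the mutant lines were above all 4 others for 4. Foxm1, the factor that activates genes of the G2 and M phases, was at 111, 93.2 and 121 CPM in the mutant lines, 14.2 and 44.3 CPM in the null lines and 28.2 and 57.3 CPM in WT. Kif11, the kinesin that separates spindle poles, was at 55.0, 45.7 and 59.0 CPM against 6.24 and 22.2 CPM, and Top2a, the topoisomerase of chromosome separation, at 267, 198 and 267 CPM against 35.0 and 128 CPM (the latter chosen after its values were seen). The median was 0.61 without null 1 and 2.89 without null 3. As log2 ratios averaged over the list, relative to the WT mean, null 1 stood at -2.66 and null 3 at -0.50. Mutant 1, 2 and 3 were at 0.18, -0.33 and 0.24, which lies between WT 1 at -0.46 and WT 2 at 0.46.

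Promoters of cell cycle genes are shown because replication and mitosis genes carry different letters. The E2F letters TTTCCCGC or TTTGGCGC, on either strand, were in 10 of 28 promoters (35.7%) of the higher replication genes, against 1.56% of all promoters and 2.71% of those of the genes tested. The other tested replication genes held them in 1 of 7 (14.3%). The cell cycle homology letters TTTGAA, through which FOXM1-containing complexes are recruited, were in 16 of 21 promoters (76.2%) of the higher mitosis genes, against 17.9% of all promoters. The other tested mitosis genes held them in 9 of 12 (75.0%), a like share. The stretches printed are from genes with a match. Mcm3 and Clspn, named above, had no E2F match before the start, and Ccne2 and Foxm1 had no promoter matched by symbol. Stretches before the start, with the E2F match in capitals in Cdc6 and Mcm5 and the TTTGAA match in Kif11 and Top2a, read as follows.
Cdc6 (chr11:98907951-98908050, plus strand): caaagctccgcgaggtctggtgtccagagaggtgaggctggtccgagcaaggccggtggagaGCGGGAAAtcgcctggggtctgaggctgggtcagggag
Mcm5 (chr8:75109298-75109397, plus strand): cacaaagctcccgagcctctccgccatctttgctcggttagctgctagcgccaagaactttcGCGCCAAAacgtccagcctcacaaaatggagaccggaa
Kif11 (chr19:37376282-37376381, plus strand): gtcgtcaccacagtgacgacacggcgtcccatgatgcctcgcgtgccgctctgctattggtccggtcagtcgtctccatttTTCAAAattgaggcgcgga
Top2a (chr11:99024190-99024289, minus strand): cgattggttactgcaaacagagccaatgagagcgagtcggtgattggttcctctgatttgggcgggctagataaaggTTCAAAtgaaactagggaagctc
In all 4 stretches the match lies on the strand opposite to the one printed.

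**Figure D5:**
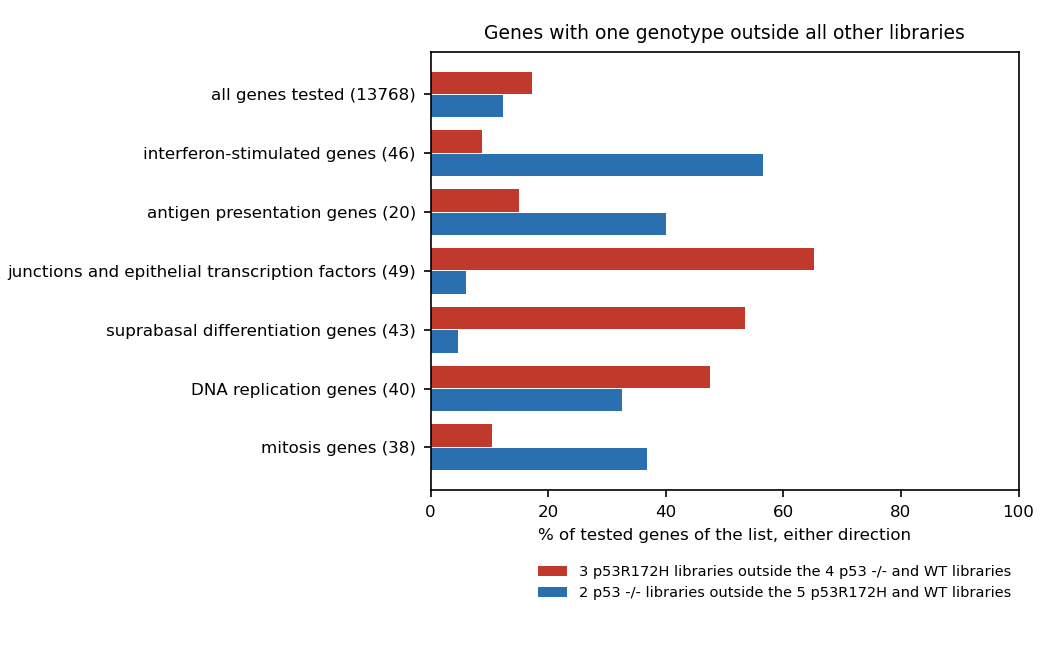
Percent of tested genes of 6 lists, and of all genes tested, for which the 3 mutant libraries lie outside the 4 null and WT libraries (red) or the 2 null libraries lie outside the 5 mutant and WT libraries (blue), in either direction. Red bars are long for junction and suprabasal genes, blue bars for interferon and antigen presentation genes, and DNA replication genes have both.

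Genes that p53 activates did not separate the genotypes as a group. Of 46 tested 6 were higher and 9 lower without overlap, near the shares of all genes, and the median log2 fold change was -0.13, or 0.01 without null 1. Cdkn1a, which encodes the CDK inhibitor p21, was at 50, 36.2 and 24.7 CPM in the mutant lines and 98.9 and 56.2 CPM in the null lines, with a gap of 1.12-fold. Mdm2, the ubiquitin ligase of p53, was at 90.5, 90.8 and 90.6 CPM against 109 and 91.0 CPM. WT lines were at 574 and 336 CPM for Cdkn1a and 328 and 203 CPM for Mdm2, above all mutant and null lines. Lif, a cytokine, had the widest gap of the 9 at 27.8, 22.7 and 27.2 CPM against 66.4 and 52.7 CPM. Phlda3, an inhibitor of AKT, was higher at 108, 197 and 192 CPM against 90.5 and 61.0 CPM, and Aen, a nuclease of apoptosis, at 57.3, 77.0 and 74.4 CPM against 36.1 and 50.7 CPM.

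Genes reported elsewhere as effectors of missense p53 were mixed. Of 43 tested 9 were higher and 4 lower without overlap, with a median of 0.11, and none had a 2-fold gap. Id4, an inhibitor of basic helix-loop-helix factors, was at 10.9, 26.6 and 27.6 CPM in the mutant lines against 1.10 and 5.96 CPM. Twist1, a factor of mesenchymal transition, was at 31.2, 54.5 and 36.8 CPM against 13.3 and 19.8 CPM, and Ccng2, a cyclin of quiescent cells, was lower at 46.4, 44.6 and 50.3 CPM against 71.2 and 72.2 CPM. Several well-known members overlapped. Csf1, the macrophage growth factor, was at 354, 89.9 and 119 CPM against 57.6 and 318 CPM, and Pdgfrb, a receptor of platelet-derived growth factor, at 24.3, 0.0712 and 17.1 CPM against 0.152 and 60.0 CPM. Bhlhe41 was at 18.7, 42.1 and 61.6 CPM against 20.8 and 20.7 CPM, and Slc7a11, the cystine transporter, at 239, 228 and 336 CPM against 985 and 225 CPM. Entpd5, Dicer1, Rab11fip1, Egfr and Trp63 overlapped as well, and Met was at 236, 291 and 300 CPM against 333 and 310 CPM, lower by a gap of 1.03-fold.

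Growth factor receptors and ligands were near the background, with 4 of 32 tested higher (12.5%) and 6 lower (18.8%) without overlap. Their median log2 fold change was -0.28, and 0.46 without null 3. Erbb3, the receptor that binds neuregulins without kinase activity of its own, was lower at 12.2, 11.2 and 3.90 CPM against 46.7 and 27.6 CPM, while the neuregulin Nrg2, which is outside the list and given above, was higher. Pdgfb, a ligand of receptors of platelet-derived growth factor, was lower at 6.35, 0.973 and 1.06 CPM against 19.3 and 25.7 CPM, and Tgfa, an EGFR ligand, at 36.8, 55.3 and 53.7 CPM against 84.2 and 67.0 CPM. In the WNT and TGF-beta list 3 of 39 were higher and 1 lower, below the shares of all genes. Wnt5a was at 47.2, 33.2 and 65.7 CPM against 2.95 and 22.4 CPM and Fzd1, a WNT receptor, at 81.1, 76.2 and 59.9 CPM against 33.4 and 45.7 CPM, while Wnt7b was at 52.6, 44.3 and 35.4 CPM against 101 and 92.8 CPM.

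Mesenchymal genes were near the background as a list. Of 37 tested 7 were higher (18.9%) and 4 lower (10.8%) without overlap, with a median of 0.29 that was -0.10 without null 1 and 1.62 without null 3. Besides Zeb1, S100a4 and Twist1, the filament protein Vim was at 343, 577 and 825 CPM in mutant 1, 2 and 3 and at 2.71 and 225 CPM in null 1 and null 3, with at most 3.41 CPM in WT. Cdh2, N-cadherin, was at 46.0, 72.0 and 27.3 CPM against 0.213 and 23 CPM. Vim and Cdh2, chosen after their values were seen, were close to WT in null 1 only. Mmp10, a matrix protease, went the other way at 2.85, 0.546 and 1.45 CPM against 9.68 and 9.72 CPM.

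Interstitial collagens and matrix genes gave 0 of 19 tested without overlap in either direction, where 31.1% of all genes were. Col3a1 was at 148, 0.214 and 183 CPM in the mutant lines and 0.0913 and 276 CPM in the null lines, and Col1a1 at 42.9, 3.37 and 111 CPM against 1.03 and 34.5 CPM. Mutant 1, mutant 3 and null 3 were high and mutant 2 and null 1 low, the same split as the sum of fibroblast markers. Col1a1 and Col3a1 are themselves among those markers, so the match is not separate evidence. Mutant 2 had Zeb1 at 53.6 CPM and S100a4 at 85.8 CPM with fibroblast markers at 25.3 CPM in sum. The part of that split in the mesenchymal genes was not tested.

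Of 28 chromatin regulators 10 were higher (35.7%) and 4 lower (14.3%) without overlap, but the higher members were separated narrowly. At an unadjusted edgeR p under 0.05 0 were higher and 3 lower, and a 2-fold gap was left by 0 higher and 1 lower. Dnmt3b, a de novo DNA methyltransferase, was at 2.66, 0.878 and 1.67 CPM against 6.79 and 7.33 CPM, and Dnmt3a at 43.5, 44.1 and 40.7 CPM against 85.7 and 57.4 CPM. Ezh2, the methyltransferase of Polycomb, was at 61.5, 71.8 and 54.7 CPM against 34.9 and 46.8 CPM. Cholesterol synthesis had 3 of 23 lower (13.0%) and 0 higher, and its median of -0.38 was 0.06 without null 1. Among NRF2 and glutathione genes 1 of 25 was higher (4.00%) and 3 were lower (12.0%): Gstm1, a glutathione transferase, was at 52.4, 55.7 and 38.2 CPM against 16.3 and 23.1 CPM. Proteasome subunits had 7 of 32 higher (21.9%) and 3 lower (9.38%).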

How the data were processed

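The deposited table holds unnormalized counts for each gene name, read as counts from its whole-number values. Libraries came from a stranded mRNA kit, per the labels' protocols, and STAR 2.5.1b and the build mm9 are named in the submitters' processing notes. The counting step, its strand setting and its annotation were not stated in any source consulted, so overlapping genes and near copies are uncertain. Of 24047 names, 92 spike-in names with 0 counts were left out, and 27 date-like names were kept and not named.

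Genes were filtered by filterByExpr, scaled with TMM and tested for mutant against null with edgeR 4.0.16 (quasi-likelihood F test, legacy form, R 4.3.3), with all 7 libraries in 1 fit and a common biological coefficient of variation of 0.485. P-values were adjusted by the Benjamini-Hochberg method over 13768 genes, with a threshold of 0.05, and standard errors were derived from the F statistic. The tested genes took 99.95% or more of the counts in every library. Gaps used a pseudocount of 0.5 CPM. Counts of 0 were set to a floor of 3 over the group. The labels do not say whether lines came from separate animals, so p-values rest on the spread among these cultures. On simulated counts of 13768 genes, the test called 6, 56, 92 and 98% of genes changed 2-, 4-, 16- and 64-fold, with 7 false calls. Replicate libraries were compared by chi-square (56.4 to 243.1 per degree of freedom).

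The genes and lists were chosen with earlier results of these data known. Named genes are the 15 widest gaps in each direction with 5 CPM or more in every library of the higher group, as many as 3 per list and direction, up to 10 per direction called in most alternative fits, up to 10 per direction by their gap from all 4 other libraries, and 17 genes set from background knowledge. Exceptions are marked. Promoter sequences are RefSeq's, matched by symbol, in a build other than that of the counts. Alternatives tried were DESeq2 1.42.0, limma-voom 3.58.1, scaling by RLE or upper quartile, other filters and pseudocounts, a robust and a newer fit, thinned libraries, fewer groups, a replicate block and each library left out.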

Additional observations from a re-analysis of the deposited data

How the results depend on the processing

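The count of called genes was 1 with RLE factors, upper-quartile factors, a 5 CPM filter, the newer quasi-likelihood fit or libraries thinned to 12751118 counts, 2 with no filter, and 604 with DESeq2. It was 0 with limma-voom (2112 at an unadjusted p under 0.05), a robust fit (1926) and a fit of only the mutant and null lines (1518). Leaving out 1 library gave 0 to 22 called genes, and the 22 came without null 3, where null 1 alone stood for the null group and was assumed to vary like the other groups. Trp53 passed the threshold under RLE factors (5.04), upper-quartile factors (5.02), DESeq2 (5.04), no filter (5.05), the 5 CPM filter (5.04), the newer fit (5.05) and thinned libraries (5.07), as well as without null 3 (4.69, adjusted p = 0.034 by edgeR), and its log2 fold change was 4.69 to 5.59 with 1 library left out. Genes without overlap numbered 2677 to 4584 higher and 2606 to 4561 lower with 1 compared library left out, since fewer libraries overlap less. With a 2-fold gap these became 89 to 693 higher and 174 to 719 lower. A pseudocount of 0.1 CPM gave 77 higher genes with a 2-fold gap, and 2 CPM gave 26 higher and 86 lower. With any 1 of the 7 libraries left out, the mutant lines were above all null and WT lines for 1315 to 2389 genes and below them for 1312 to 2306, the most without mutant 1, and the null lines above all mutant and WT lines for 944 to 2754 and below them for 1088 to 2600, the most without null 3. The runs without mutant 1, mutant 3 and null 3 in this count were chosen after seeing the data. A replicate block called 0 genes (1492 at an unadjusted p under 0.05). Deviations from the group means gave no sign that replicate numbers pair the lines. Those of mutant 1 and null 1 correlated at -0.405 and those of mutant 3 and null 3 at -0.0205. With only 2 null lines, the deviations of null 1 and null 3 are mirror images, so these values cannot settle pairing. The block is therefore given only here. Among 124 other named genes and 2230 alternative values, 2109 kept direction and side of the threshold, 89 came to pass it (85 with DESeq2) and 32 changed sign, in 11 genes that overlap between the groups or, as Mdm2, nearly touch. With 1 library left out, the log2 fold change ran from -0.41 to 0.59 for Krt5, -0.42 to 11.04 for Ddx3y, -0.13 to 0.04 for Ifnar1, -0.26 to 0.00 for Mdm2, -0.86 to 1.71 for Csf1, -2.11 to 6.48 for Pdgfrb, -1.87 to 0.26 for Slc7a11, -0.21 to 0.09 for Entpd5, -0.28 to 0.27 for Dicer1, -0.54 to 0.19 for Egfr and -1.32 to 10.19 for Col3a1, and an end of each range but that of Entpd5 came without null 1 or null 3. With limma-voom it was 0.03 for Krt5, 0.21 for Csf1, 0.50 for Pdgfrb and 2.35 for Col3a1. With the newer fit and thinned libraries Csf1 was at 0.00 and 0.02, and with the replicate block Csf1, Pdgfrb and Col3a1 were at 0.52, 2.31 and 3.58. The cause of these changes was not tested. The 2 null lines limit every statement here, and genes under about 5 CPM rest on few counts.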

Other observations

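Genes that failed the filter were looked at as a last check. Of those not tested, 4799 had counts, and 191 were higher and 448 lower in every mutant library than in every null library, none above 3.65 CPM in any library. Among tested genes, Krt19, a keratin of simple epithelia, was the only one of 11 stress and simple-epithelial keratins higher without overlap, at 2.97, 3.32 and 2.87 CPM in mutant 1, 2 and 3 against 0.274 and 0.38 CPM in null 1 and null 3, with 0.510 and 4.63 CPM in WT. Another 5 of the 11 were lower, led by Krt23 and by Krt7, which was at 205, 133 and 30.4 CPM against 957 and 416 CPM.

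Iron and neural genes gave isolated separations. Fth1, the heavy chain of ferritin, was at 1348, 1194 and 1566 CPM in the mutant lines against 18858 and 2637 CPM in the null lines, and WT 1 and WT 2 were at 7931 and 2155 CPM. Mbp, known as a myelin gene, was at 34.3, 31.3 and 35.8 CPM against 73.2 and 58.1 CPM, and 9 or 10 of 13 neural and glial markers were under 1 CPM in every library. Cd68, a lysosomal gene of macrophages, was at 48.1, 70.4 and 91.8 CPM against 32.1 and 22.5 CPM, and WT lines at 74.1 and 78.9 CPM sat with the mutant lines.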
